A study of Mus musculus with 26 samples.

Results

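Loss of the receptor Notch1 was compared directly with loss of its relative Notch2 in glioma cells of mice, using every library titled for one of the 2 single receptor deletions. These were 11 of the 26 RNA sequencing libraries of the study, 6 labelled Notch1-/- and 5 labelled Notch2-/-. A further 6 libraries of tumours with intact Notch signalling served as control. All 3 groups carried the deletion of the tumour suppressor Trp53 and the PDGF drive of the model, and the control differed from the others only in being labelled wild type for Notch1 and Notch2. Cells were sorted by flow cytometry for GFP, which a Cre recombinase had switched on from a Rosa-CAG::GFP reporter, after early gliomas had been dissected under the microscope. The labels give neither the promoter that drove Cre nor the age or sex of the mice, nor which part of each gene was deleted, nor whether replicates came from separate animals. The p-values below therefore speak of the spread among these libraries alone, and that spread may be technical.

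Notch receptors are cleaved when a ligand of the Delta or Jagged family on a neighbouring cell binds them. The freed intracellular part enters the nucleus and joins the DNA-binding protein Rbpj, and together they switch on repressors of the Hes and Hey families and feedback genes such as Nrarp. In the developing brain this pathway holds progenitors back from becoming neurons and favours the astrocyte fate, and in blood vessels it governs sprouting.

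Total counts ran from 31593287 to 42378306 in the Notch1-/- libraries, from 37786708 to 48103535 in the Notch2-/- libraries and from 37613009 to 46703709 in the controls, and 15617 genes had enough counts to be tested. Levels are given in CPM (each count scaled to a common library total), and a gene is said to have risen or fallen where the adjusted p of edgeR's quasi-likelihood test was under 0.05. Log2 fold changes are Notch1-/- minus Notch2-/- unless another pair is named, and ± gives their standard error. Pdgfra, the PDGF receptor that marks oligodendrocyte precursors, stood at 2000 to 5940 CPM in Notch1-/- and at 4570 to 7180 CPM in Notch2-/- libraries (-0.44 ± 0.27, adjusted p = 0.404). Notch1-/- replicate 2 stood apart in several genes given below, with the proliferation gene Mki67 at 164 CPM against 646 to 811 CPM in the other 5. Notch2-/- replicates 3 and 4 held 71.3 and 1920 CPM of Xist, which is made from the silenced X chromosome of females, together with the Y-linked gene Ddx3y at 45.9 and 74.1 CPM. Control replicate 6 had 412 and 64 CPM of the same 2 genes. Control replicate 1 had Xist at 1620 CPM and Ddx3y at 0, and the other libraries of these groups had Ddx3y with Xist at no more than 2.84 CPM. These 3 libraries, which carried RNA of both sexes, are called mixed below, and calls that end without them are marked.

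Of the genes tested, 131 were higher and 351 were lower in the libraries labelled Notch1-/- than in those labelled Notch2-/-, which is 0.839% and 2.25% of all genes tested. Of the 482, 211 were called in every one of the 11 fits that left out 1 library of these groups, 32 of them higher and 179 lower. By at least 4-fold, 165 were lower and 41 were higher. The median log2 fold change of all genes was 0.02, and libraries of the 2 groups did not overlap in 1.35% of genes on the higher and 2.4% on the lower side. At an unadjusted p under 0.05 stood 2934 of the 15617 genes tested. Counts at that threshold in the gene lists below are to be read against this background. Against control the same groups gave 4174 calls for Notch1-/- (26.7% of genes, with 13.2% higher and 13.5% lower) and 46 for Notch2-/- (0.295%, with 0.128% higher and 0.166% lower). Both comparisons use the same control libraries, so that their values are only set side by side here. With the microglia score described below as a covariate the balance turned over, to 546 higher and 278 lower, and 206 of the 482 were among them. With the same covariate Notch1-/- against control gave 51 calls (29 higher, 22 lower) in place of 4174, and Notch2-/- against control gave 19 in place of 46. The score, the mean log2 CPM of 21 microglia and macrophage genes, ran from 0.61 to 3.22 in Notch1-/-. It was 3.25 to 4.55 in Notch2-/- and 3.62 to 5.53 in control. As Notch1-/- overlapped neither group, this covariate cannot be told apart from the Notch1-/- label. Calls of Notch1-/- lost or gained with it, here and below, do not show what part carried-over cells had. The count of 482 became 142 without the 3 mixed libraries (17 higher, 125 lower). It was 275 without Notch1-/- replicate 1, 841 without Notch1-/- replicate 5, and 310, 293 and 284 without Notch2-/- replicates 3, 4 and 5.

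**Figure D1:**
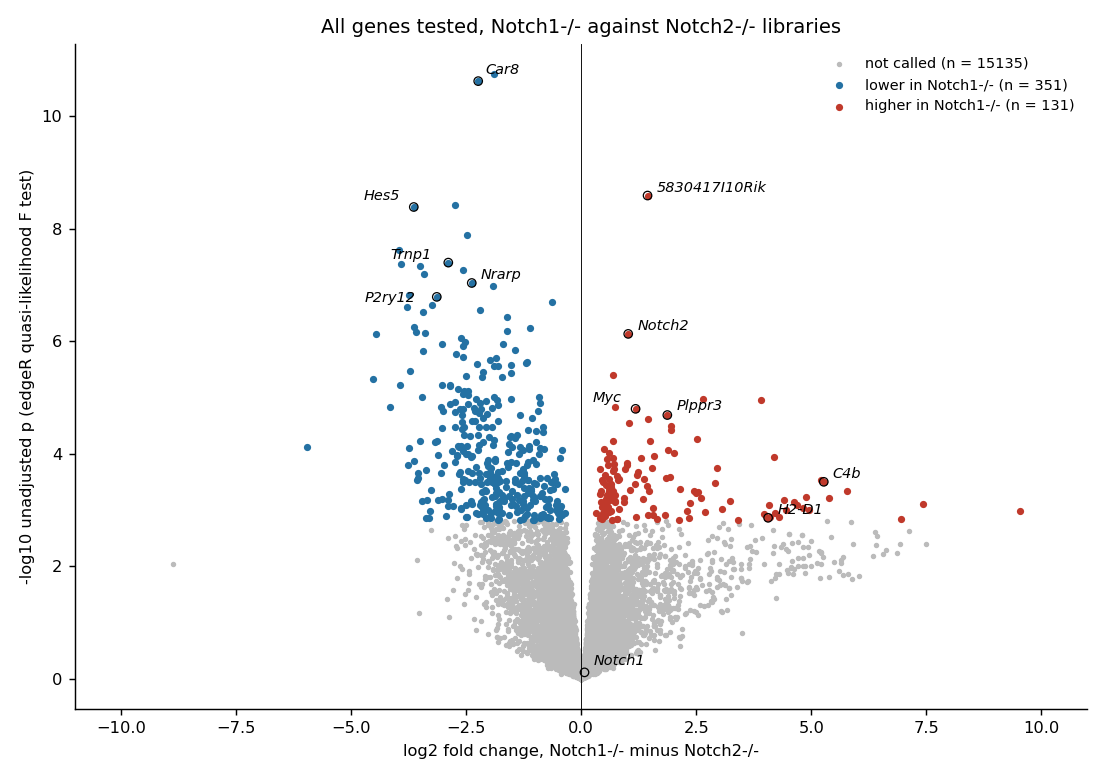
Each point is 1 of the genes tested, with its log2 fold change on the x axis and the −log10 of its unadjusted p on the y axis, grey where it was not called, blue where it was lower and red where it was higher in the libraries labelled Notch1-/-. The 351 lower genes reach smaller p-values than the 131 higher ones, with Car8 and Hes5 near the top, and Notch1 lies at the bottom, near 0.

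The deleted receptors were read first. Notch2 lies on chromosome 3 from 98013538 to 98150367 (Entrez gene 18129, coordinates in GRCm38.p6). It stood at 6.14, 8.58, 7.34, 7.90 and 6.79 CPM in the 5 Notch2-/- libraries and at 11.4 to 18.1 CPM (median 15.2) in the Notch1-/- libraries. Every Notch2-/- library was thus below every Notch1-/- library and also below every control library (9.42 to 16.4 CPM). The difference was 1.02 ± 0.16 (adjusted p = 3.98e-04). Notch1 lies on chromosome 2 from 26457902 to 26503822 (Entrez gene 18128). Libraries labelled Notch1-/- did not have less of it, with 88.2 to 214 CPM (median 142) against 140, 125, 130, 160 and 129 CPM in Notch2-/-. The Notch2-/- values lay inside the Notch1-/- range (0.07 ± 0.25, adjusted p = 0.902). A count over the whole gene need not show the loss of an exon, so that the Notch1 level checks nothing about that label. Rbpj (0.30 ± 0.18, adjusted p = 0.384) and Trp53 (0.23 ± 0.16, adjusted p = 0.474), which is deleted in all groups, were not called either.

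Target genes of the pathway separated the groups in their mean log2 CPM, which was 1.84 to 2.29 in Notch1-/- and 3.12 to 3.41 in Notch2-/-. Their summed level overlapped slightly, at 111 to 173 CPM against 172 to 223 CPM. Of 11 tested, 5 fell in Notch1-/- against Notch2-/- and 0 rose, where 2.25% of all genes fell. A negative log2 fold change was seen in 8 and a positive one in 3, with a median of -0.80. Hes5, which holds back neuronal differentiation (Entrez gene 15208, on chromosome 4 from 154960626 to 154962372), had 0.312 to 0.705 CPM (median 0.483) in Notch1-/-. In the Notch2-/- libraries it had 8.54, 8.18, 6.36, 6.73 and 2.38 CPM, and in the controls 2.27 to 7.97 CPM (median 3.43). The lowest Notch2-/- library was above the highest Notch1-/- library, and the difference was -3.64 ± 0.41 (adjusted p = 1.27e-05). Nrarp, a feedback inhibitor that binds the intracellular part of the receptor, had 1.78 to 10.1 CPM (median 7.29) in Notch1-/- against 41.7, 38.5, 29.5, 31.6 and 29.4 CPM in Notch2-/- and 16.4 to 35.2 CPM (median 21.7) in control. It did not overlap between the 2 deletions (-2.38 ± 0.32, adjusted p = 1.1e-04). Lfng, a glycosyltransferase that tunes which ligands a Notch receptor answers to, had 0.71 to 4.24 CPM (median 1.32) in Notch1-/- against 21.8, 6.91, 6.92, 10.3 and 6.06 CPM in Notch2-/- (-2.57 ± 0.48, adjusted p = 0.00288).

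The promoters of these genes are shown because Rbpj binds the motif GTGGGAA, which was searched on both strands in the 250 bases before the annotated start (RefSeq, GRCm38.p6). Capitals mark a match, read on the gene's strand, so that a match on the other strand appears as its reverse complement. Hes5 (chr4:154960673-154960922, + strand) had 2 matches, 226 and 83 bases before the start, Lfng (chr5:140607091-140607340, + strand) had 1 at 109 bases, and Nrarp (chr2:25180508-25180757, + strand) had 0. Of 32851 promoters of this length in the table, 5.42% held a match. The Hes5 window lies inside the gene span given above. Its distances hold for the start used in this search, and not for the first base of that span. A match is a description of the letters only.
Hes5: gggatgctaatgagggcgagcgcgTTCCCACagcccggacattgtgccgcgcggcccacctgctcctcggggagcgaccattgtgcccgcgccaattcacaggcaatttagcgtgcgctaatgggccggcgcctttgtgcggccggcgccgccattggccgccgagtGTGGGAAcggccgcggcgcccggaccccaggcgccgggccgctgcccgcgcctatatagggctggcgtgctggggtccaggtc
Lfng: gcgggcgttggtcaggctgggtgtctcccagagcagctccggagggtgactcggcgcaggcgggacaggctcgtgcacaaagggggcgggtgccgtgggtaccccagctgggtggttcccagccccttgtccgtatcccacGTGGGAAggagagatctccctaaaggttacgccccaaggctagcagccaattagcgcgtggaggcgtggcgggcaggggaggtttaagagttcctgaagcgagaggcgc
Nrarp: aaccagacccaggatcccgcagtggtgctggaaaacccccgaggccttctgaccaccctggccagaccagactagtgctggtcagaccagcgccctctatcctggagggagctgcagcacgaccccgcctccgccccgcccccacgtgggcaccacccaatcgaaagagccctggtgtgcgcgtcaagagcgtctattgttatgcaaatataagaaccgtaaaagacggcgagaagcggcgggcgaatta

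The other two targets that fell did so by less. Hes1, a repressor that oscillates in progenitors, had 1.09 to 11.6 CPM (median 6.58) in Notch1-/- against 26.1, 23.8, 17.7, 15.1 and 17.4 CPM in Notch2-/-, without overlap (-1.64 ± 0.39, adjusted p = 0.0187). Its call ended without Notch1-/- replicate 1 or Notch2-/- replicate 1 (adjusted p = 0.0515 to 0.0542) and without the mixed libraries (0.066). Hey1, a repressor of the same family, had 12.7 to 27.5 CPM (median 13.0) in Notch1-/- against 29.5, 28.1, 32.7, 27.5 and 25.1 CPM in Notch2-/- (-0.80 ± 0.19, adjusted p = 0.0211). Here Notch1-/- replicate 2, the highest of its group, lay within the Notch2-/- range. The Hey1 call ended without Notch1-/- replicates 1, 3 or 6 or Notch2-/- replicate 3 (adjusted p = 0.0523 to 0.063) without the mixed libraries (0.164) and with the microglia score as a covariate (0.162). Hes1 and Hey1 were also not called in a fit limited to the compared libraries. The number of targets called was 3 without Notch1-/- replicate 1 and 3 without the mixed libraries, and with the microglia score as a covariate 4 targets were lower and 1 was higher. For comparison with intact Notch, Hes5 stood at -2.99 (adjusted p = 5.85e-05) in Notch1-/- minus control and at 0.65 (adjusted p = 0.407) in Notch2-/- minus control. The same 2 values were -1.82 (4.02e-04) and 0.56 (0.391) for Nrarp, -1.55 (0.0158) and 1.02 (0.313) for Lfng, -1.19 (0.0229) and 0.45 (0.574) for Hes1, and -0.99 (9.9e-04) and -0.19 (0.635) for Hey1. Thus all 5 were below control in the libraries labelled Notch1-/-, and none was called in those labelled Notch2-/-.

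**Figure D2:**
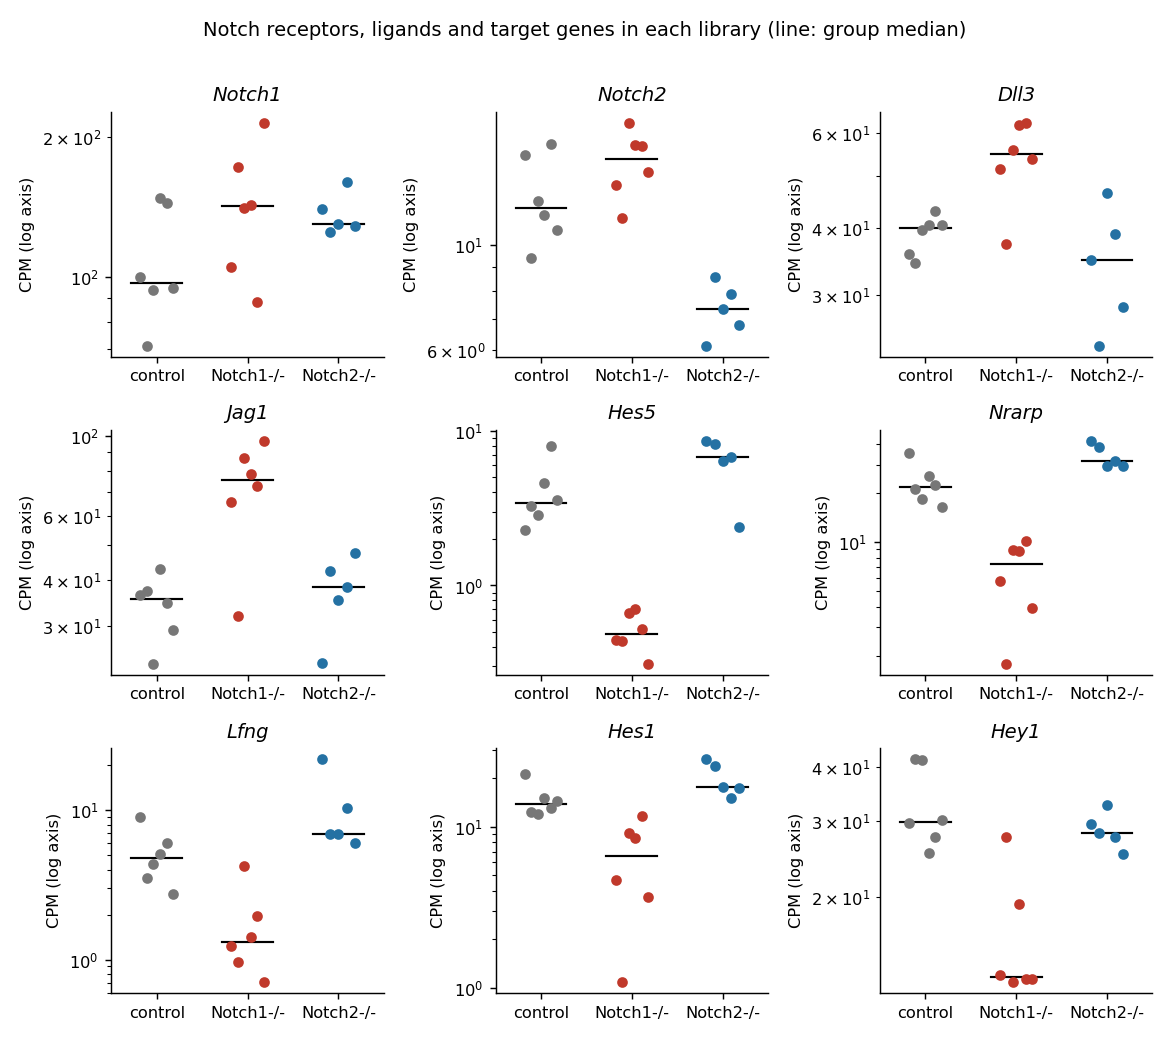
CPM on a log axis in each library (points) of the control, Notch1-/- and Notch2-/- groups, with the group median as a line, for 2 receptors, 2 ligands and 5 target genes. The Hes5, Nrarp, Lfng and Hes1 points of Notch1-/- lie below all Notch2-/- points, Notch2 is lowest in Notch2-/-, and Notch1 overlaps in all groups.

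Among 12 receptors and ligands, 2 rose, Notch2 itself and Dll3, and 0 fell. Dll3, a ligand relative that acts inside the cell as an inhibitor of Notch, had 37.3 to 62.6 CPM (median 54.8) in Notch1-/- against 34.8, 24.1, 46.5, 38.9 and 28.5 CPM in Notch2-/-. The ranges overlapped through Notch1-/- replicate 2, the lowest of its group (0.64 ± 0.15, adjusted p = 0.0198), and the call ended without Notch2-/- replicate 5 (0.0725), with the microglia score as a covariate (0.183) and in a fit limited to the compared libraries. Jag1, a ligand, had 65.6 to 96.5 CPM in 5 Notch1-/- libraries and 32 CPM in replicate 2, against 23.7, 42.5, 35.3, 38.4 and 47.6 CPM in Notch2-/- (0.94 ± 0.30, adjusted p = 0.0809). edgeR did not call Jag1 with all libraries and did without Notch1-/- replicate 2 (0.0247), and DESeq2 and voom called it. Dll4, the ligand of sprouting endothelium, had 0.0698 to 0.235 CPM in Notch1-/- against 0.306 to 0.683 CPM in Notch2-/- without overlap, at low counts (-1.47 ± 0.41, adjusted p = 0.0505). edgeR did not call Dll4 with all libraries and did without Notch1-/- replicate 5 (0.0459), and DESeq2 and voom called it. Jag1 and Dll4 are named after their values were seen. Of 29 transducers and modifiers, such as the secretase subunits and the coactivators of Rbpj, edgeR called 0. DESeq2 and voom also called 0, 2 had an unadjusted p under 0.05, and the median was 0.04.

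Genes of astrocytes were lower in the libraries labelled Notch1-/-. Of 20 tested, 9 fell and 0 rose, 18 had a negative log2 fold change, and the median was -0.92. The mean log2 CPM of the list ran from 4.67 to 5.23 in Notch1-/-, from 5.96 to 6.46 in Notch2-/- and from 5.90 to 6.49 in control, so that Notch2-/- lay within the control range and Notch1-/- below both. Slc4a4, a sodium bicarbonate cotransporter, had 6.12 to 10.2 CPM (median 6.99) in Notch1-/- against 30.6, 32.5, 17.6, 53.8 and 37.8 CPM in Notch2-/- (-2.20 ± 0.31, adjusted p = 2.15e-04). Mlc1, a membrane protein of astrocyte endfeet, had 0.681 to 3.99 CPM (median 2.23) against 12.9, 7.01, 13.2, 15.6 and 13.2 CPM (-2.52 ± 0.39, adjusted p = 5.25e-04). Neither gene overlapped between the groups.

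Aqp4, the water channel of the endfeet, had 2.37 to 6.99 CPM (median 3.86) in Notch1-/- and 18.7, 20.2, 13.7, 37.5 and 31.2 CPM in Notch2-/- (-2.51 ± 0.43, adjusted p = 0.00125). Apoe, the lipid carrier, had 16.1 to 46.9 CPM (median 28.5) and 126, 57.4, 153, 135 and 89.8 CPM in the same order (-1.86 ± 0.30, adjusted p = 8.07e-04). Apoe is also made by microglia, and its call ended with the microglia score as a covariate (adjusted p = 0.0512). Slc39a12, a zinc transporter, was outside the list and among the largest falls of all genes, from 9.02, 3.04, 12.6, 17.1 and 14.1 CPM in Notch2-/- to 0.17 to 1.64 CPM in Notch1-/- (-3.78 ± 0.54, adjusted p = 2.04e-04). The astrocyte count was 4 without the mixed libraries and 6 with the microglia score as a covariate, and the median with that covariate was -0.83.

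Of 20 glutamate receptor genes, 3 fell and 0 rose. Gria1, an AMPA receptor subunit, had 2.55 to 8.34 CPM (median 3.19) in Notch1-/- against 17.2, 20.3, 19.9, 31.8 and 20.6 CPM in Notch2-/-, without overlap (-2.46 ± 0.44, adjusted p = 0.00221). Grm3, the metabotropic receptor of astrocytes and precursors, had 1.08 to 4.46 CPM against 8.13, 6.41, 19.8, 25.3 and 18.7 CPM (-2.54 ± 0.52, adjusted p = 0.00613). Grin2c, an NMDA receptor subunit, had 0.142 to 1.17 CPM against 2.86, 1.29, 3.51, 7.93 and 4.06 CPM (-3.02 ± 0.60, adjusted p = 0.00495). Without the mixed libraries the calls of Grm3 (0.0916) and Grin2c (0.0579) ended and that of Gria1 remained (0.0275). With the microglia score as a covariate the Grin2c call ended (0.0514) and the count was 2.

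Markers of cell types other than the glioma cells moved with the groups as well. In bulk RNA, fewer cells of a type and less RNA per cell cannot be told apart. The part that carried-over cells had in the other results was not tested, since the microglia score did not overlap between the 2 deletions. Of 21 microglia and macrophage genes, 11 fell, 0 rose and 21 had a negative log2 fold change, with a median of -1.73. Their summed level was 119 to 332 CPM in Notch1-/-, 381 to 833 CPM in Notch2-/- and 458 to 1720 CPM in control, without overlap between the 2 deletions. P2ry12, the purinergic receptor of resting microglia, had 1.77 to 7.41 CPM (median 5.17) in Notch1-/- against 46.0, 38.7, 16.1, 76.6 and 46.8 CPM in Notch2-/- (-3.14 ± 0.43, adjusted p = 1.59e-04). Trem2, a lipid receptor, had 0.333 to 1.14 CPM against 9.44, 3.95, 3.47, 8.27 and 5.51 CPM (-3.03 ± 0.47, adjusted p = 5.33e-04). Both kept their groups apart, and both were called in every fit with 1 library left out. The count of 11 was 7 without Notch1-/- replicates 1 or 3, Notch2-/- replicates 4 or 5, or the mixed libraries.

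Endothelial genes were lower in Notch1-/- too. Of 15, 9 fell and 0 rose, with a median of -2.24, and the summed level was 38.4 to 95.9 CPM in Notch1-/-, 82.6 to 204 CPM in Notch2-/- and 122 to 327 CPM in control. Tek, the angiopoietin receptor, had 0.158 to 0.998 CPM (median 0.399) in Notch1-/- against 2.12, 2.79, 5.58, 5.50 and 8.57 CPM in Notch2-/- (-3.44 ± 0.49, adjusted p = 2.27e-04). Slco1c1, a thyroid hormone transporter of the blood-brain barrier, had 1.23 to 4.92 CPM (median 2.15) against 11.4, 14.6, 30.5, 39.0 and 41.1 CPM (-3.42 ± 0.45, adjusted p = 8.42e-05). Both were called in every fit with 1 library left out and without the mixed libraries. With the microglia score as a covariate Tek (-3.34, adjusted p = 0.0104) and Slco1c1 (-3.34, 0.00566) kept their calls, while the endothelial count became 2. Of 14 mural and fibroblast genes 4 fell and 0 rose. The pericyte gene Rgs5 had 1.61 to 6.11 CPM (median 3.01) against 8.04, 32.7, 21.6, 42.1 and 64.3 CPM (-3.39 ± 0.51, adjusted p = 3.98e-04). The mural count was 8 without Notch1-/- replicate 5, 2 without Notch2-/- replicate 5 and 2 without the mixed libraries. The 9 infiltrating myeloid genes had a median of -1.89, and 6 had an unadjusted p under 0.05. DESeq2 called 1 of them higher and 4 lower, and voom called 4 lower. With edgeR only Mrc1, the mannose receptor of border macrophages, was called (-2.44 ± 0.58, adjusted p = 0.0187). That call ended without Notch1-/- replicate 1 or Notch2-/- replicates 4 or 5 (0.0512 to 0.055), without the mixed libraries (0.172) and with the microglia score as a covariate (0.0977). That covariate also ended the call of Trem2 (0.143) and left that of P2ry12 (0.0339), both of them members of the score.

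**Figure D3:**
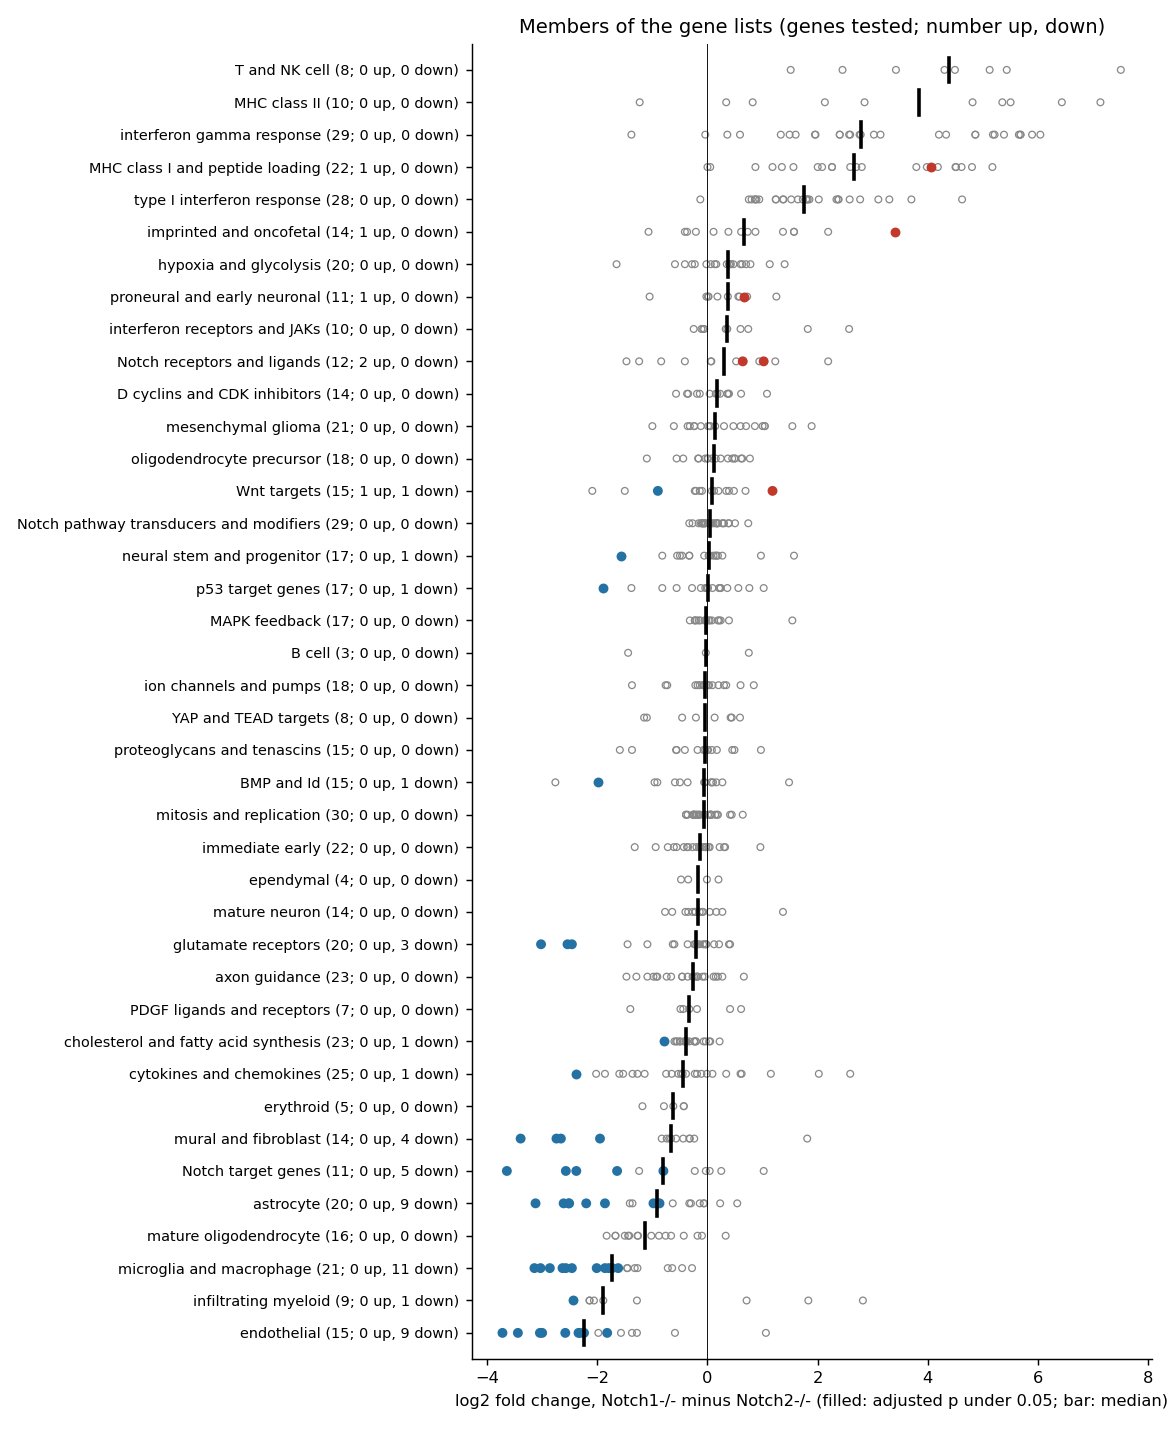
Log2 fold change (Notch1-/- minus Notch2-/-) of each tested member of the 40 gene lists, filled blue where it fell and red where it rose at an adjusted p under 0.05, open where it was not called, with the list median as a black bar. The endothelial, microglia, astrocyte and Notch target lists hold most of the falls, and the lists of antigen presentation and interferon response have medians above 0 with nearly all members open.

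Genes of other glial and neuronal stages showed few calls. Of 18 oligodendrocyte precursor genes edgeR called 0 (DESeq2 and voom 1 each, 4 at an unadjusted p under 0.05, median 0.11). Of 16 mature oligodendrocyte genes edgeR and DESeq2 called 0, voom called 11, 8 had an unadjusted p under 0.05, and the median was -1.14. Of 17 neural stem and progenitor genes 1 fell, the stem cell surface protein Prom1 (-1.57 ± 0.43, adjusted p = 0.0436). That call ended without Notch1-/- replicates 1, 3, 4 or 6 or Notch2-/- replicates 3, 4 or 5 (0.0745 to 0.139), without the mixed libraries (0.324) and with the microglia score as a covariate (0.174). Of 11 proneural and early neuronal genes 1 rose, the transcription factor Sox4, from 49.5, 51.3, 41.5, 52.2 and 47.5 CPM to 55.7 to 107 CPM (0.66 ± 0.18, adjusted p = 0.0484). The Sox4 groups did not overlap, yet the call ended without Notch1-/- replicates 1, 2, 3 or 6 or any 1 Notch2-/- replicate (0.0565 to 0.132), without the mixed libraries (0.256) and with the microglia score as a covariate (0.0513). A fit limited to the compared libraries also ended the calls of Mrc1, Prom1 and Sox4 and, among genes described below, of Msmo1, H19, H2-D1 and C4b.

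Id4, an inhibitor of bHLH factors that is high in astrocyte precursors, was the 1 edgeR call among 15 BMP and Id genes. DESeq2 called 1 of these genes higher and 4 lower, voom called 4 lower, and the median was -0.06. Id4 had 0.539 to 1.32 CPM (median 0.718) in Notch1-/- against 2.27, 2.81, 3.16, 3.60 and 3.81 CPM in Notch2-/-, without overlap (-1.98 ± 0.32, adjusted p = 8.3e-04). Trnp1, a chromatin-associated protein of cortical progenitors, fell from 29.9, 16.7, 35.1, 22.3 and 23.2 CPM in Notch2-/- to 2.07 to 6.26 CPM (median 2.60) in Notch1-/- (-2.89 ± 0.37, adjusted p = 7.13e-05), and the controls were at 31.3 to 49.5 CPM. Car8, a carbonic anhydrase relative that binds the inositol trisphosphate receptor and is named after its values were seen, had 168, 179, 114, 154 and 139 CPM in Notch2-/-, 22.6 to 45.5 CPM (median 31.4) in Notch1-/- and 99.1 to 142 CPM (median 113) in control. Its difference of -2.24 ± 0.19 (adjusted p = 1.83e-07) was called under every alternative tried, as was that of Trnp1. Id4 was called under every alternative that tested it. Its low level may have kept Id4 out of the fit with a filter of 10 CPM in 4 libraries. Perp, a membrane protein of desmosomes, was the 1 edgeR call among 17 p53 target genes, at 0.17 to 0.642 CPM against 1.57, 1.70, 1.07, 1.09 and 1.76 CPM (-1.90 ± 0.34, adjusted p = 0.00235). DESeq2 called 3 of these 17 lower, voom called 1 higher and 3 lower, and the median was 0.01.

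Of 15 Wnt target genes, 1 rose and 1 fell. Myc, the growth regulator, had 42.4 to 104 CPM (median 72.8) in Notch1-/- against 35.3, 35.7, 32.9, 30.6 and 32.3 CPM in Notch2-/- and 22.7 to 43.8 CPM in control. It did not overlap between the deletions (1.18 ± 0.22, adjusted p = 0.00289), was called with each single library left out, and was not called without the mixed libraries (0.0562) or with the microglia score as a covariate (0.0983). The other, the Wnt inhibitor Apcdd1, fell (-0.90 ± 0.19, adjusted p = 0.00824), and its call too ended without the mixed libraries (0.116) and with that covariate (0.117). Msmo1, a sterol oxidase, was the 1 edgeR call among 23 cholesterol and fatty acid synthesis genes (-0.78 ± 0.20, adjusted p = 0.0297), ended by leaving out Notch1-/- replicates 1, 3 or 6 or Notch2-/- replicates 1 or 3 (0.0648 to 0.114) or the mixed libraries (0.234). Of these 23 genes 20 had a negative log2 fold change, the median was -0.39, and 11 had an unadjusted p under 0.05. DESeq2 called 4 of them lower and voom 9. Of 30 mitosis and replication genes edgeR, DESeq2 and voom called 0, and 0 had an unadjusted p under 0.05. Mki67 had 329, 618, 124, 579 and 618 CPM in Notch2-/- (0.44 ± 0.47, adjusted p = 0.653). Its ranges overlapped only through Notch1-/- replicate 2, at 164 CPM, as the other Notch1-/- libraries had 646 CPM or more. Of 17 MAPK feedback genes the same tests called 0. Of 7 PDGF ligands and receptors edgeR and DESeq2 called 0, voom called 2, and 1 had an unadjusted p under 0.05.

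Of the 15 largest falls chosen by the rule for naming genes, 14 were called in every fit with 1 library left out and 13 without the mixed libraries. Of the 15 largest rises, 4 and 2 were. Among the falls was Hhipl2, a relative of a Hedgehog-binding protein, with 45.0, 57.9, 34.6, 18.7 and 59.7 CPM in Notch2-/- and 2.71 to 5.31 CPM (median 3.45) in Notch1-/- (-3.51 ± 0.45, adjusted p = 7.13e-05). Klhl4, of the kelch-like family, had 17.1, 12.3, 13.1, 16.2 and 39.7 CPM against 0.629 to 3.42 CPM (median 1.52) in the same order (-3.59 ± 0.54, adjusted p = 3.98e-04). Neither overlapped between the groups, and both were called under every alternative tried. Plppr3, a membrane protein of growing neurites, was one of the rises that held, with 4.08 to 7.66 CPM (median 6.77) in Notch1-/- against 1.03, 1.6, 2.31, 2.16 and 1.37 CPM in Notch2-/- and 0.70 to 2.16 CPM in control (1.87 ± 0.36, adjusted p = 0.00336). Cercam, a glycosyltransferase-like protein, was the other rise called without the mixed libraries, with 9.68 to 52.2 CPM (median 12.8) against 3.32, 2.48, 7.16, 7.55 and 3.89 CPM (1.95 ± 0.38, adjusted p = 0.0048). Its highest value, in Notch1-/- replicate 2, was far from the 15.5 CPM of the next library, and the difference was 1.34 to 2.16 with each library left out. The Cercam call ended in a fit limited to the compared libraries. H19, the fetal imprinted RNA, had 3.35 to 169 CPM (median 25.8) in Notch1-/- against 3.12, 6.23, 1.91, 1.01 and 8.80 CPM (3.41 ± 0.95, adjusted p = 0.0484). That call ended without Notch1-/- replicates 1, 2 or 6 or any 1 Notch2-/- replicate (0.0633 to 0.127) and without the mixed libraries (0.317).

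Antigen presentation and interferon response varied widely within the Notch1-/- group. Of 22 genes of MHC class I and peptide loading 1 rose, 22 had a positive log2 fold change, and the median was 2.65. DESeq2 called 12 of them higher and voom 0, 19 had an unadjusted p under 0.05, and edgeR called 0 without the mixed libraries. H2-D1, a class I heavy chain, had 1630, 4990, 98.2, 739, 51.1 and 3160 CPM in Notch1-/- replicates 1 to 6 and 101, 169, 95.0, 107 and 60.7 CPM in Notch2-/-. Of Notch1-/-, replicate 3 thus lay within the Notch2-/- range, replicate 5 below it and the other 4 above it. The fit gave 4.06 ± 1.13 (adjusted p = 0.0468), a call that ended without Notch1-/- replicates 1, 2 or 6 or any 1 Notch2-/- replicate (0.0637 to 0.113) and without the mixed libraries (0.264), and class I genes are near-identical copies whose reads may be shared. Without Notch1-/- replicate 5, 5 class I genes were called. In the controls H2-D1 had 136 to 4680 CPM (median 2830), with replicate 1, the library with Xist and no Ddx3y, lowest, so that the Notch2-/- libraries stood with the lowest control and not with the median one. Notch2-/- minus control was -4.68 (adjusted p = 0.0948) and Notch1-/- minus control -0.62 (adjusted p = 0.632), neither of them called.

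Class II and interferon genes were also high in some Notch1-/- libraries and low in others. The median of Notch1-/- minus control was -1.03 for class II genes (3 called lower) and 0.28 for interferon gamma genes (2 called lower). For Notch2-/- minus control it was -4.61 and -3.15, with 0 genes called. In the controls the mean log2 CPM ran from 0.89 to 6.28 for class II and from 1.83 to 7.5 for interferon gamma genes. Control replicate 1 was lowest in both. Of 10 MHC class II genes edgeR called 0, DESeq2 6 and voom 1, with 6 at an unadjusted p under 0.05 and a median of 3.83. H2-Ab1, a class II chain, had 48.3, 478, 2.47, 8.4, 1.93 and 216 CPM in Notch1-/- replicates 1 to 6 against 4.83, 1.82, 3.74, 3.44 and 1.57 CPM in Notch2-/- (5.35 ± 1.5, adjusted p = 0.0505). Of 29 interferon gamma response genes edgeR called 0, DESeq2 18 and voom 1, 26 had an unadjusted p under 0.05, 27 were positive and the median was 2.78. Irgm1, a GTPase induced by interferon, had 963, 2350, 47.4, 215, 40.7 and 1410 CPM in Notch1-/- replicates 1 to 6 against 51.9, 244, 47.4, 72.2 and 58.7 CPM in Notch2-/- (3.14 ± 1.11, adjusted p = 0.12). The same 2 Notch1-/- libraries, replicates 3 and 5, were low in each of these genes. Of 28 type I interferon genes edgeR and voom called 0 and DESeq2 6, with 17 at an unadjusted p under 0.05 and a median of 1.76.

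Of 15 T and NK cell genes listed, only 8 had enough counts to be tested. Of these 8, edgeR and voom called 0 and DESeq2 3, with 8 at an unadjusted p under 0.05. Their summed level was 3.14, 11.8, 1.08, 0.352, 0.452 and 5.39 CPM in Notch1-/- replicates 1 to 6, 0.311 to 0.869 CPM in Notch2-/- and 0.193 to 5.54 CPM in control. In Notch2-/- these genes were near the floor, and the filter may have kept them only through libraries where they were higher. The 8 of 8 is therefore no evidence by itself. The 3 Notch1-/- libraries with the highest interferon genes, replicates 1, 2 and 6, were also the 3 with the most T and NK cell RNA, and the part of these cells in the result was not tested. The summed microglia level went the other way and was lower in each Notch1-/- library than in any Notch2-/- library, by little for Notch1-/- replicate 2 (332 CPM) against Notch2-/- replicate 3 (381 CPM), and 9 of the 21 genes did not overlap between the groups. With the microglia score as a covariate 19 of the 22 class I genes and 25 of the 29 interferon gamma genes were called higher in Notch1-/-, Irgm1 among them (5.11, adjusted p = 0.0156). C4b, a complement component that interferon can induce, was the largest of the rises given by the rule (5.27 ± 1.26, adjusted p = 0.0187). It had 620, 4610, 122, 107, 42.5 and 2140 CPM in Notch1-/- against 7.89, 85.9, 7.10, 25.2 and 38.7 CPM in Notch2-/-, and reads of its near-copy C4a may be shared with it. Its call ended without Notch2-/- replicates 1, 3, 4 or 5 (0.0526 to 0.0582) and without the mixed libraries (0.189). In the controls C4b had 7.38 to 948 CPM (median 417). Notch1-/- minus control was 1.46 (adjusted p = 0.267) and Notch2-/- minus control -3.82 (adjusted p = 0.177), neither of them called.

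**Figure D4:**
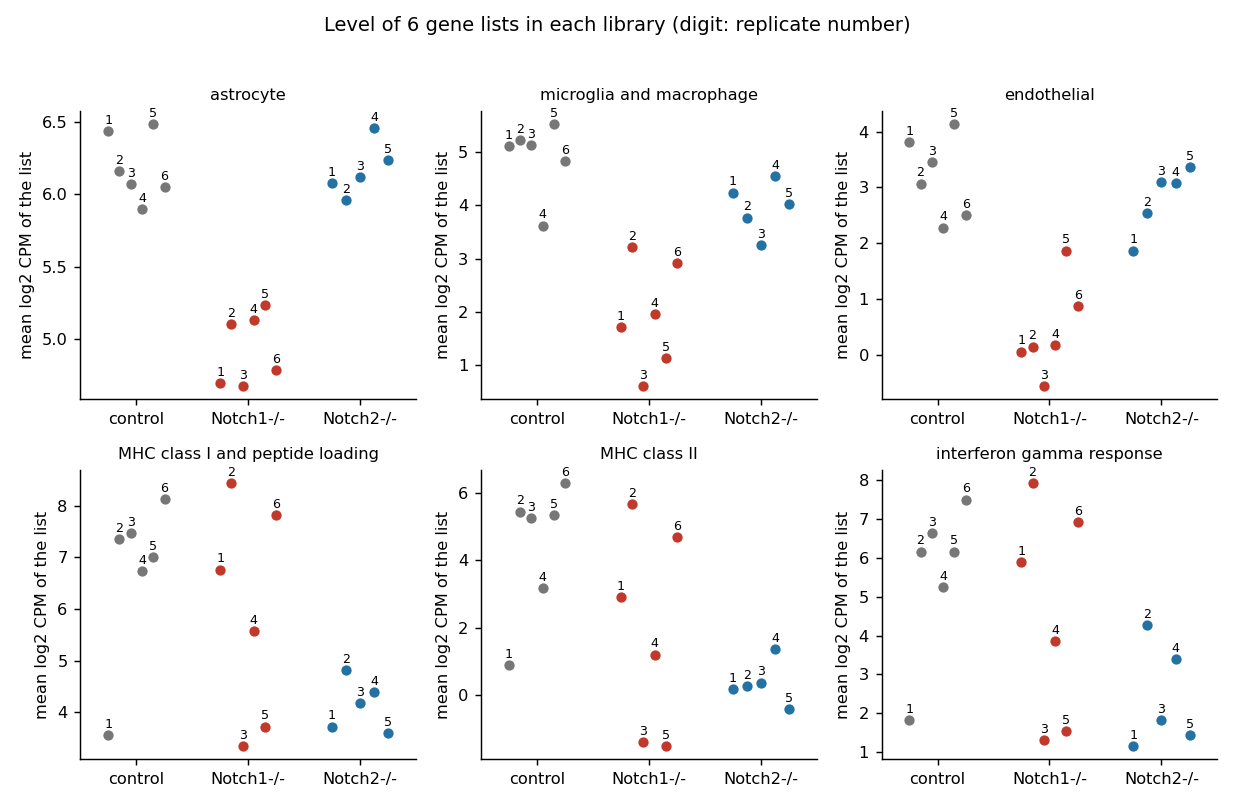
Mean log2 CPM of 6 gene lists in each library (points, with replicate numbers) of the control, Notch1-/- and Notch2-/- groups. Notch1-/- libraries lie below all Notch2-/- libraries for astrocyte and microglia genes, while for the 3 lists of antigen presentation and interferon response Notch1-/- replicates 1, 2 and 6 lie above all Notch2-/- libraries and replicates 3 and 5 below the highest of them.

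The position of the called genes was examined around the deleted loci. Within 10 Mb of Notch2 (leaving out Notch2), 20 of 275 genes tested were called between the deletions (7.27% against 3.09% of all genes), 9 higher and 11 lower, and chromosome 3 as a whole had 47 of 756 (6.22%). For Notch2-/- against control, 9 of the same 275 were called (3.27% against 0.295%). For Notch1-/- against control, where Notch2 is labelled wild type, the window was above the background too, with 99 of 275 (36% against 26.7%). Within 10 Mb of Notch1, 6 of 240 genes (2.5%) were called between the deletions and 0 between Notch2-/- and control. The genes named next were chosen after their values were seen. 5830417I10Rik, whose start is at -9.24 Mb from that of Notch2, had 63.7 to 94.1 CPM (median 73.3) in Notch1-/- against 24.2, 35.5, 22.2, 31.7 and 27.3 CPM in Notch2-/- and 39.7 to 70.1 CPM in control, so that Notch2-/- was apart from both (1.44 ± 0.16, adjusted p = 1.27e-05). Scnm1, a splicing factor gene at -2.88 Mb, had 21.6 to 30.6 CPM against 13.3, 10.2, 16.3, 10.5 and 11.2 CPM, with 22.1 to 39.9 CPM in control (1.04 ± 0.20, adjusted p = 0.00433). Ankrd35, at -1.34 Mb, had 1.00 to 2.11 CPM against 0.131, 0.228, 0.222, 0.214 and 0.269 CPM, with 1.05 to 1.77 CPM in control (2.64 ± 0.48, adjusted p = 0.0024). For these 3 genes Notch2-/- minus control was -0.89, -1.34 and -2.70 (adjusted p = 0.00871, 0.00288 and 0.00871), and S100a3, at -7.45 Mb, stood at -2.68 (adjusted p = 0.00225). All 4 were called between the deletions in every fit with 1 library left out and without the mixed libraries, and the call of S100a3 ended in a fit limited to the compared libraries. The strain from which each deleted allele came is not in the labels, and its part in these values was not tested.

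**Figure D5:**
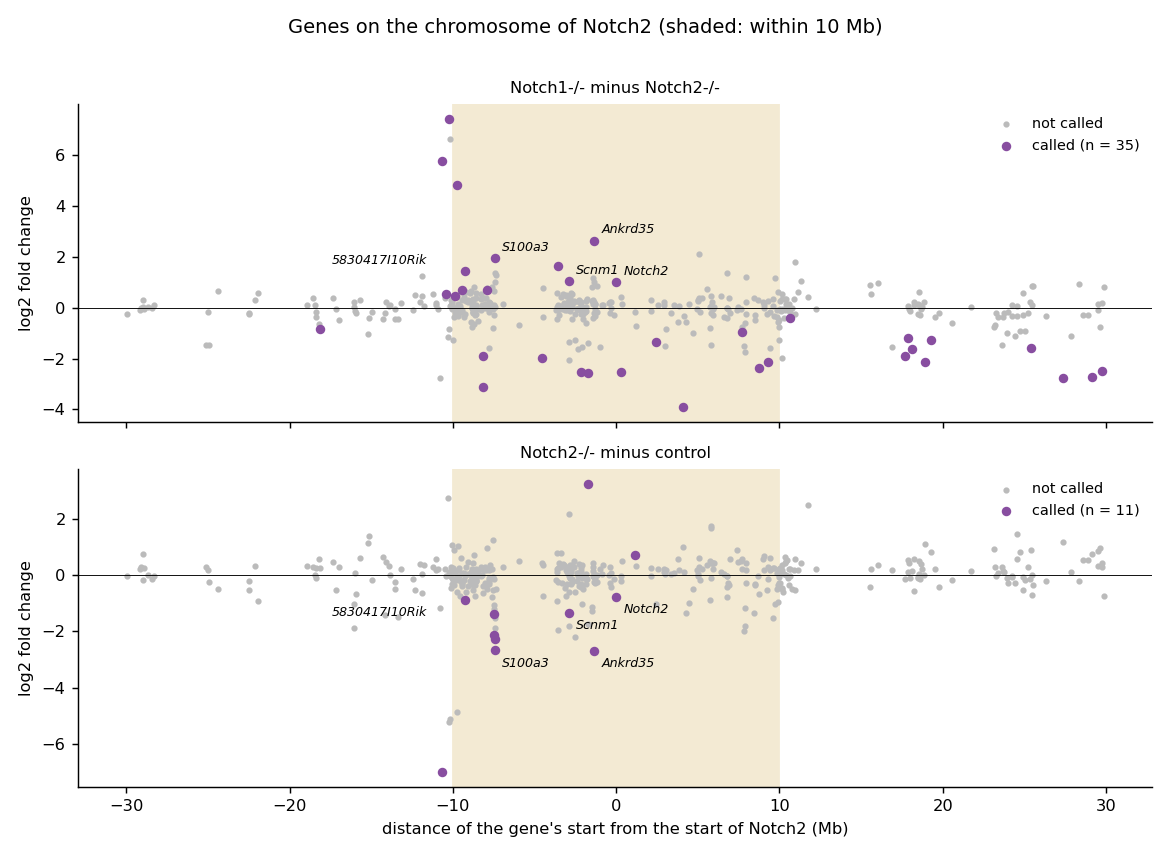
Log2 fold change of genes on the chromosome of Notch2 against the distance of their start from that of Notch2, in Mb, for Notch1-/- minus Notch2-/- (top) and Notch2-/- minus control (bottom), purple where called and shaded within 10 Mb. In the bottom panel the 9 called genes of the shaded part, besides Notch2, are 7 below 0 and 2 above, with Ankrd35 and S100a3 lowest among those labelled.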

How the data were processed

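RNA was sequenced from GFP-positive glioma cells, with TRIzol extraction, the TruSeq Stranded RNA LT kit and a NextSeq 500, per the labels' protocols. The deposited table holds raw read counts per Entrez gene, which the authors made with STAR on mm10, per the submitters' processing notes; the sources used here do not give the counter, annotation or strand setting, which leaves overlapping, antisense and near-identical genes uncertain. Replicates are as labelled, and 24374 of 24454 genes matched a RefSeq table (GRCm38.p6).

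All 26 libraries entered 1 fit by genotype with edgeR 4.0.16 (R 4.3.3): filterByExpr, TMM scaling, quasi-likelihood F-test, Benjamini-Hochberg adjustment over 15617 genes. Alternatives used DESeq2 1.42.0, limma 3.58.1, other filters, covariates, a replicate block and left-out libraries. In simulated data of 15489 genes for this comparison, 50 of 100 changes of 1 on the log2 scale and 86 of 100 changes of 2 were recovered. The fitted sign was wrong for 2 changes of 1, counted whether or not they were called, and 7 unchanged genes were called. Within the groups all 40 pairs of libraries differed beyond sampling noise (chi-square per gene at least 72.4).

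Genes named are Notch1, Notch2, Rbpj, Trp53, the 15 largest called rises and falls among genes averaging 1 or more in log2 CPM whose libraries fell mostly on opposite sides of the other group's median, and, from each list, its best 4 called members (or its 2 highest in expression if it had no call). Which of these are described was decided after their values were seen. Car8, Hey1, Dll4, Jag1 and the neighbours of Notch2 lie outside the rule. Members and lists were chosen with earlier results of these data known. A few genes are not reported here.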

Additional observations from a re-analysis of the deposited data

Results flagged for a closer look

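In 78 genes and 3 groups each, 22 of 234 groups had a lowest or highest library far from the others by Dixon's criterion, which chance alone meets in about 1 in 20 groups. Of the Notch genes, Hes5 had 2.38 CPM in Notch2-/- replicate 5, apart from the next at 6.36 CPM. Dll4 had 0.0698 CPM in Notch1-/- replicate 1 (next 0.158), and Jag1 32 CPM in Notch1-/- replicate 2 (next 65.6). Trp53 had 15.2 CPM in control replicate 3 (next 10.9).

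Notch1-/- replicate 2 was also apart in Mki67, at 164 CPM (next 646), Cercam, at 52.2 CPM (next 15.5), and Trpv4, a cation channel, at 18.6 CPM (next 4.54). Notch1-/- replicate 3 had the lowest Ly6c1, an endothelial surface protein, at 0.0316 CPM (next 0.587), and replicate 5 the highest Rps18, at 179 CPM (next 23.7).

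In Notch2-/-, replicate 2 was apart in 4 genes. It was lowest in Mlc1, at 7.01 CPM (next 12.9), in the copper transporter Atp7b, at 4.2 CPM (next 5.81), and in the class II chaperone H2-DMa, at 4.48 CPM (next 7.74), and highest in the interferon-induced GTPase Irgm1, at 244 CPM (next 72.2). Replicate 4 was highest in Gria1, at 31.8 CPM (next 20.6), and replicate 5 in the vesicle protein Syt4, at 31.5 CPM (next 13.1), and in Klhl4, at 39.7 CPM (next 17.1).

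Control replicate 1 was the lowest control in 4 genes of antigen presentation, complement or interferon response. These were C4b, at 7.38 CPM (next 389), H2-Q10, at 1.13 CPM (next 31.2), H2-D1, at 136 CPM (next 2050), and Irgm1, at 47.8 CPM (next 486). Control replicate 4 was lowest in the microglia gene Siglech, at 5.35 CPM (next 12.2), and in Ly6c1, at 3.79 CPM (next 14.7).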

How the results depend on the processing

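For Notch1-/- against Notch2-/-, the count of 482 genes (131 higher, 351 lower) was 496 with DESeq2 size factors and 425 with no filter. It moved to 193 (61, 132) with a filter of 10 CPM in 4 libraries, 1099 (472, 627) with the DESeq2 Wald test, 1904 (701, 1203) with voom, 824 (546, 278) with the microglia score as a covariate, 301 (65, 236) with Xist as a covariate, 294 (42, 252) with only the compared libraries in the fit and 142 (17, 125) without the 3 mixed libraries. Of the 482, 480 were also called with the DESeq2 test, 451 with voom and 206 with the microglia score. With each library left out the total was 275 to 841, the higher count 48 to 252 and the lower count 210 to 589. The causes of these shifts were not tested beyond the fewer samples or genes of a setting.

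Replicate numbers are shared by both deletions, but same-numbered libraries did not deviate together (correlations -0.16 to 0.047, 0 of 5 over 0.1). So few correlations cannot decide whether same-numbered libraries were handled together, which the labels do not say. With the replicate block 300 genes were called (56 higher, 244 lower), 285 of them among the 482, and 25 (11, 14) for Notch2-/- against control, and the calls of Dll3, Prom1, Msmo1, H19, Sox4 and H2-D1 were among those that ended.

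Notch1-/- against control, 4174 (2058, 2116), gave 6907 (3468, 3439) with voom and 51 (29, 22) with the microglia score, 1365 higher with the strict filter, and 1260 to 2754 higher with each library left out. Notch2-/- against control, 46 (20, 26), gave 16 (7, 9) with the strict filter, 344 (89, 255) with the DESeq2 test, 1790 (845, 945) with voom, 19 (11, 8) with the microglia score, 182 (35, 147) with only these libraries and 12 (8, 4) without the mixed ones, and 21 to 83 (10 to 32 higher, 9 to 57 lower) with each library left out. 

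Of 64 named genes that were called, 42 kept their call with each library left out, 41 with the microglia score and 36 without the mixed libraries. The sign turned for 3 genes, none of them called. Notch1 was at 0.00 with the replicate block and at -0.08 to 0.18 with each library left out (lowest without Notch1-/- replicate 6), Pdgfb at -0.57 with the microglia score and at -0.13 to 0.84 with each library left out (lowest without Notch1-/- replicate 3), and Mki67 at -0.15 with the microglia score.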

Other observations

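Ribosomal protein gene Rps2, on chromosome 17, separated libraries in a way the labels do not give. It had 122, 65.9, 92.0, 54.8 and 43.9 CPM in the 5 Notch2-/- libraries and 1.52 to 2.75 CPM in the 6 controls (Notch2-/- minus control 5.05, edgeR adjusted p = 0.00369). In Notch1-/- it had 49.1 and 94.4 CPM in replicates 1 and 5 and 2.22 to 3.19 CPM in the other 4. The difference between the deletions was -1.56 ± 0.70 (adjusted p = 0.228), and without Notch1-/- replicate 5 it passed (0.0183). Rps18, also on chromosome 17, had 149, 71.0, 252, 142 and 112 CPM in Notch2-/-, 17.3 to 30.1 CPM in control and 179 CPM in Notch1-/- replicate 5 against 13.5 to 23.7 CPM in the other Notch1-/- libraries. Both genes have many near-identical copies in the genome, so that their counts are uncertain. Both were chosen after their values were seen.

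Chromosome 17 held 13 of the 46 genes called between Notch2-/- and control, of 782 tested there (1.66% against 0.295% of all genes). Between the deletions 34 of its genes were called (4.35%), 23 of them higher in Notch1-/-. It carries the MHC genes described above. Of the class I and class II lists, however, 0 genes were called between Notch2-/- and control. Between the deletions, 1 class I and 0 class II members of the lists were called. The part of the MHC genes in the counts of this chromosome was not tested.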
